A study of Ovis aries with 115 samples.

Results

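Complement component C3 was followed through 2 identifiers of the sheep annotation, ENSOARG00000000114 (copy A) and ENSOARG00000000751 (copy B), out of 27054 identifiers counted in cervical RNA. They were chosen by name, as the identifiers that the study's tables of breed differences call C3. Those tables hold genes that passed the study's tests of Belclare, Fur or NWS against Suffolk ewes at the synchronised follicular phase. C3 was named there through the test of Fur against Suffolk, so the levels in those ewes selected the members. Breed differences at that phase are therefore given below as a description, without a test. The same Fur and Suffolk ewes also enter the comparisons of phase and cycle, which are therefore not independent of the choice in those breeds or over all breeds. Both copies were counted in every ewe and both passed the filter on low counts, with 351 to 9355 read pairs a library for copy A and 183 to 16973 for copy B. A later sheep assembly, ARS-UI_Ramb_v3.0 in NCBI RefSeq, lists 1 gene with the symbol C3. Whether the identifiers stand for 2 genes or for pieces of 1 could not be read from the files used here.

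The cervix was sampled from ewes of 4 breeds, Suffolk and Belclare kept in Ireland and Fur and Norwegian White Sheep (NWS) kept in Norway. For the synchronised follicular ewes the methods describe multiparous ewes aged 4 to 5 years, sampled post mortem in the middle of the cervix. Each breed was kept in 1 country, so for an Irish against a Norwegian breed the parts of breed and country cannot be told apart. In the synchronised cycle, which the labels call induced, ewes carried progestagen sponges and then received equine chorionic gonadotropin, as the methods describe it for the follicular phase, and they were sampled in the follicular phase (10 Belclare, 8 Fur, 10 NWS and 11 Suffolk) or the luteal phase (10 Belclare, 9 Fur, 8 NWS and 10 Suffolk). In the natural cycle ewes were sampled in the follicular phase only (10 Belclare, 10 Fur, 10 NWS and 8 Suffolk). Each of the 114 ewes gave 1 library of bulk tissue, so fewer cells of a type and less RNA per cell cannot be told apart. Libraries held 12238996 to 31261671 counted read pairs with a median of 17835128.5, and C3 took 0.00393% to 0.144% of them. The gene that the study's tables call COX-1 lay at 25.2 to 49.8 CPM (counts scaled to a fixed library total) in Fur ewes and at 828 CPM or more in the other breeds, except in NWS natural follicular replicates 4 and 10, with 38.8 and 33.0 CPM. Tests of C3 that use natural follicular NWS ewes are therefore also given without these 2 ewes, while the levels and likeness below keep them.

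C3 is the component on which the routes of complement activation converge. Its cleavage exposes a reactive thioester bond that fixes the large fragment to microbial surfaces, where receptors on phagocytes recognise it, and releases a small fragment that attracts and activates leukocytes. The liver supplies most C3 of the plasma, but epithelial cells and macrophages of many tissues also make it, and in the uterus of rodents its synthesis is known to respond to oestrogen. Complement proteins also occur in the secretions of the female tract, where sperm as well as microbes meet them.

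Levels were taken as CPM on library sizes scaled by the trimmed mean of M values (TMM). The sum of the copies ran from 44.0 to 1566 CPM over the 114 ewes, with a median of 313 CPM. The highest group medians were those of Belclare ewes at the natural follicular phase (512 CPM), Suffolk ewes at the synchronised follicular phase (467 CPM) and Suffolk ewes at the synchronised luteal phase (463 CPM). The lowest were those of NWS ewes (164 CPM) and Fur ewes (117 CPM) at the synchronised luteal phase. In the order of the medians, the mean log2 level of each of the 12 groups was set against that of the next. The means did not all follow this order. Each difference was smaller than the larger of the 2 standard deviations of the log2 level. No pair of neighbours in the order was therefore separated by more than its spread. Within groups the log2 level varied with a standard deviation of 0.82.

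**Figure D1:**
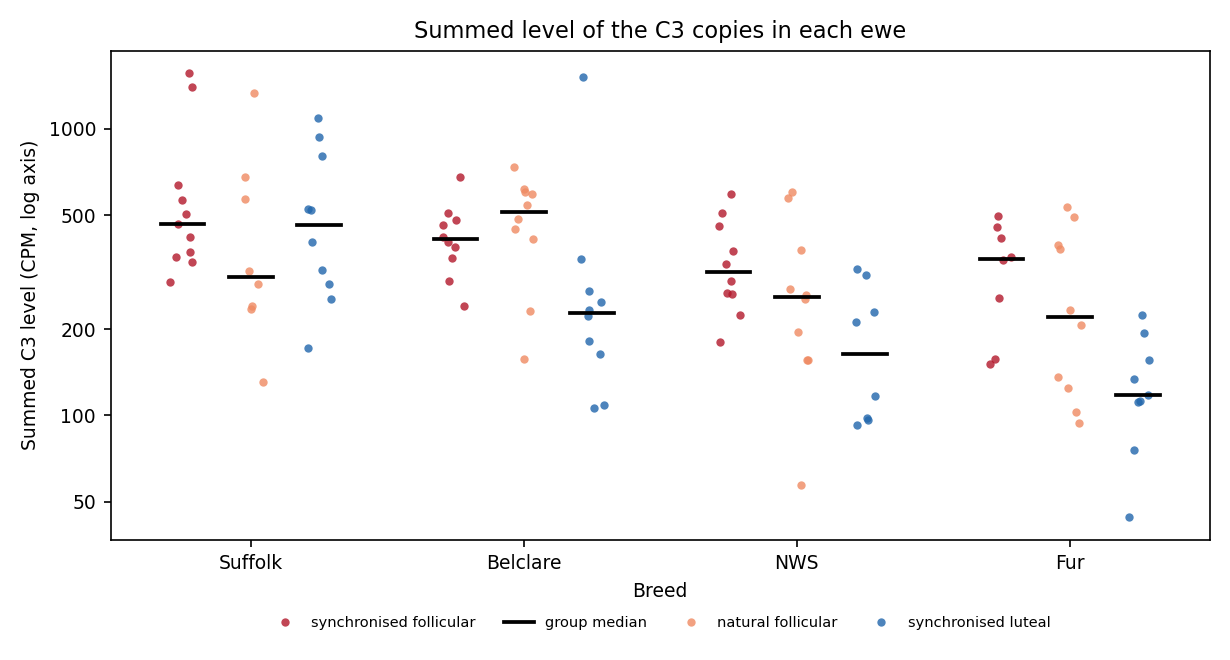
Summed C3 level in each ewe (points, CPM on a log axis) by breed and state, with the group median as a bar. The Fur luteal ewes lie between 44.0 and 225 CPM, all below the Suffolk luteal median of 463 CPM, and 1 Belclare luteal ewe stands apart at 1522 CPM.

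At the synchronised follicular phase, where the members were selected, the summed level in Suffolk ewes ran from 291 CPM through a median of 467 CPM to 1566 CPM. In Fur ewes it ran from 151 CPM through 352 CPM to 495 CPM. NWS ewes lay between 180 and 593 CPM with a median of 317 CPM, and Belclare ewes between 240 and 681 CPM with a median of 412 CPM. The Fur mean was 0.523 times the Suffolk mean, while the Fur median was 0.755 times the Suffolk median. The 2 highest Suffolk ewes, replicates 3 and 2, with 1566 and 1404 CPM, were far above the next at 635 CPM, and the ranges of Suffolk and Fur overlapped. Replicate 3 also had the highest summed level of acute phase genes of all 114 ewes (1069 CPM) and replicate 2 that of leukocyte markers (353 CPM), and their part in the C3 level was not tested.

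The phase comparison asks how C3 differed between the follicular and luteal phases of the synchronised cycle. C3 was higher in the follicular phase in Fur and NWS ewes. In Suffolk ewes no difference was detected, and in Belclare ewes the call depended on 1 ewe and was not the same in every test. In Fur ewes the summed level ran from 44.0 through 117 to 225 CPM in the luteal phase, against 151 through 352 to 495 CPM in the follicular phase. Of the 8 follicular Fur ewes, 6 lay above every luteal Fur ewe. The log2 fold change was 1.33 (SE 0.30), with an adjusted p of 0.0017 by edgeR's quasi-likelihood F test with Benjamini-Hochberg adjustment over all genes, in a comparison that called 45.2% of all genes. These Fur follicular ewes were among those that selected the members, and they were the lower side of that contrast.

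NWS ewes were not in the contrast that selected C3. In them the luteal level ran from 92.5 through 164 to 324 CPM and the follicular level from 180 through 317 to 593 CPM. The groups overlapped, with 5 of 10 follicular ewes above every luteal ewe. The log2 fold change was 0.92 (SE 0.30, edgeR adjusted p = 0.0189, 40.8% of all genes called), and the adjusted p was 0.0535 when all 12 groups were fitted together.

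In Belclare ewes the luteal level ran from 106 through 228 to 1522 CPM and the follicular level from 240 through 412 to 681 CPM. Luteal replicate 7, at 1522 CPM, was far above the next luteal ewe at 352 CPM. With it, the log2 fold change was 0.32 (SE 0.40, edgeR adjusted p = 0.549, 42.9% of all genes called). Without it the log2 fold change was 1.01 (edgeR adjusted p = 0.00116). The DESeq2 likelihood ratio test called the difference with no ewe left out (0.93, adjusted p = 0.000163). It ran with the default replacement of outlying counts, and its value lay nearer the one without luteal replicate 7. Whether the count of that ewe was replaced was not recorded, so this does not show a call with that count kept. In this ewe the leukocyte markers summed to 312 CPM and the acute phase genes to 348 CPM, against at most 160 and 145 CPM in the other luteal Belclare ewes, and their part in its C3 level was not tested.

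In Suffolk ewes the luteal level ran from 171 through 463 to 1093 CPM, and the follicular level given above from 291 through 467 to 1566 CPM, so that the medians were close and the ranges overlapped. The log2 fold change was 0.21 (SE 0.35, edgeR adjusted p = 0.670, 35.5% of all genes called), and 0.0090 without follicular replicate 3. These Suffolk follicular ewes were the higher side of the contrast that selected the members.

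Over the 4 breeds together, with breed as a covariate, the summed level was higher in the follicular phase by a log2 fold change of 0.67 (SE 0.19, n = 76 ewes, edgeR adjusted p = 0.00126). The fold changes of copy A and copy B were 0.64 and 0.68. This comparison called 69.5% of all genes, 5448 higher and 5427 lower in the follicular phase, so that a call as such was common. Of the 39 follicular ewes, the 8 Fur and 11 Suffolk ewes had selected the members. Without both breeds, in Belclare and NWS alone, the log2 fold change was 0.60 (SE 0.26, n = 38, edgeR adjusted p = 0.0509) and was not called. The fold changes of the breeds were not shown to differ from each other, since the breed by phase interaction had an adjusted p of 0.409 (edgeR, 3 degrees of freedom, 0.952% of all genes called).

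Markers of the cell types of the cervix were followed beside C3. Over the breeds 7 of 18 epithelial markers were higher in the follicular phase and 3 lower, from CLDN4, a tight junction protein, at a log2 fold change of -0.73 to MUC1, a membrane mucin, at 0.87. Of 12 leukocyte markers 3 were higher and 5 lower, from LIMD2 at -0.79 to JAK3, a kinase of lymphocyte cytokine receptors, at 1.46. Of 6 smooth muscle markers 2 were higher and 1 lower (ASB2 -0.77, ACTC1 2.19), and of 4 endothelial markers 1 was higher and 1 lower (SOX17 -0.58, ROBO4 0.28). The medians of these lists were 0.10, -0.32, 0.40 and -0.02, beside -0.01 over all genes. This comparison called 69.5% of all genes, so that a call of a marker as such was common.

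Within the breeds the markers moved as follows. In Fur ewes 1 of 18 epithelial markers was higher and 2 were lower in the follicular phase, and their summed level ran from 1356 to 3614 CPM against 861 to 3142 CPM in the luteal phase. Of 12 leukocyte markers 2 were higher and 2 lower, with sums of 81.9 to 206 CPM against 45.4 to 133 CPM. Smooth muscle markers were higher for 2 of 6, with ACTC1, an actin of heart muscle that smooth muscle also makes, at a log2 fold change of 2.33, and sums of 1861 to 9253 CPM against 590 to 9517 CPM. The 4 endothelial markers included 1 that was lower and none that was higher. In NWS ewes 5 of 6 smooth muscle markers were higher in the follicular phase, with sums of 2714 to 9331 CPM against 940 to 3918 CPM, while 2 of 18 epithelial markers were lower, 1 leukocyte marker was higher and 2 were lower, and 1 of 4 endothelial markers was lower. In Suffolk ewes, where no C3 difference was detected, 10 of 18 epithelial and 3 leukocyte markers were higher. There 1 epithelial, 2 leukocyte and 2 smooth muscle markers were lower, and no endothelial marker was called. In Belclare ewes 4 epithelial, 3 leukocyte, 1 smooth muscle and 1 endothelial marker were higher. Lower were 1 epithelial, 3 leukocyte and 1 endothelial marker. Of all genes 45.2% were called in Fur, 40.8% in NWS, 35.5% in Suffolk and 42.9% in Belclare. The part of the markers in the C3 level was not tested.

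The cycle comparison asks how C3 differed between the synchronised and the natural follicular phase. No difference was detected in any breed. Natural follicular levels ran from 158 through 512 to 735 CPM in Belclare, from 93.8 through 220 to 531 CPM in Fur, from 57.0 through 258 to 602 CPM in NWS and from 131 through 303 to 1332 CPM in Suffolk ewes. In each breed the ranges of the synchronised and natural ewes overlapped.

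The log2 fold change of synchronised over natural was -0.20 in Belclare (SE 0.23, edgeR adjusted p = 0.9999, 0% of all genes called), 0.30 in Fur (SE 0.36, adjusted p = 0.609, 18% called), 0.29 in NWS (SE 0.32, adjusted p = 0.735, 0.0128% called) and 0.40 in Suffolk (SE 0.42, adjusted p = 0.796, 0% called). Without NWS natural follicular replicates 4 and 10 the value in NWS was 0.22. Single ewes moved these values by over 1.5 times, in Suffolk to 0.17 without synchronised replicate 3 and to 0.84 without natural replicate 9, in NWS to 0.15 without natural replicate 5 and to 0.47 without natural replicate 3, in Fur to 0.20 without synchronised replicate 1 and to 0.47 without natural replicate 3, and in Belclare to -0.30 without synchronised replicate 6 and to -0.11 without natural replicate 8. Over the breeds it was 0.19 (SE 0.18, n = 77 ewes, edgeR adjusted p = 0.615, 0% of all genes called), and the breed by cycle interaction had an adjusted p of 0.820 (2.33% of all genes called). Without the Fur and Suffolk ewes, part of which selected the members, the value over the breeds was 0.04 (edgeR adjusted p = 0.976), and without the 2 NWS ewes it was 0.17 (adjusted p = 0.701), with an adjusted p of 0.832 for the interaction. Few genes of any kind were called outside Fur. For the 3 comparisons without a call by edgeR, 332 genes in Belclare, 1334 in Suffolk and 2257 over the breeds had an unadjusted p under 0.05, and the DESeq2 likelihood ratio test called 0, 10 and 38.

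The breed comparison, with Suffolk as the reference, was tested only in the states that did not select the members. At the synchronised luteal phase C3 was lower in both Norwegian breeds than in Suffolk. Every one of the 9 Fur and 8 NWS ewes lay below the Suffolk median of 463 CPM, and 7 Fur and 4 NWS ewes lay below the lowest Suffolk ewe at 171 CPM. The log2 fold change was -2.04 for Fur (SE 0.35, n = 19 ewes, edgeR adjusted p = 0.000626, 29.4% of all genes called) and -1.53 for NWS (SE 0.38, n = 18, adjusted p = 0.0196, 8.45% called). On the linear scale these are 4.10 and 2.89 times lower levels. Both comparisons share the 10 Suffolk ewes.

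Between the Irish breeds the luteal log2 fold change of Belclare against Suffolk was -0.64 (SE 0.45, n = 20, edgeR adjusted p = 0.393, 3.5% of all genes called). Of 10 Belclare ewes 9 lay below the Suffolk median. Without Belclare replicate 7 the log2 fold change was -1.33 (edgeR adjusted p = 0.0232), so that this call again turned on 1 ewe. Over the 4 breeds the luteal levels differed (edgeR F test with 3 degrees of freedom, adjusted p = 0.00101, 44.3% of all genes called).

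Cell type markers were also compared with Suffolk at the luteal phase, and in NWS mainly the smooth muscle markers differed. In Fur against Suffolk ewes, 10 of 12 leukocyte markers were lower and none higher, with sums of 45.4 to 133 CPM in Fur and 137 to 251 CPM in Suffolk that did not overlap. All 6 smooth muscle markers were higher in Fur, with sums of 590 to 9517 CPM against 321 to 992 CPM. Of 18 epithelial markers 8 were lower, with sums of 861 to 3142 CPM against 2163 to 3419 CPM, and of 4 endothelial markers 1 was lower. In NWS against Suffolk 5 of 6 smooth muscle markers were higher. Lower were 2 of 12 leukocyte, 1 of 18 epithelial and 1 of 4 endothelial markers. Of all genes 29.4% were called for Fur and 8.45% for NWS, so calls of 1 or 2 markers in a list were not read as a shift of that list. The names of these markers come from the study's tables of breed differences at the synchronised follicular phase, so the lists lean towards genes that differ between breeds. Their part in the C3 difference was not tested.

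At the natural follicular phase no breed differed from Suffolk by the test. The log2 fold change against Suffolk was -0.82 for Fur (SE 0.44, n = 18, edgeR adjusted p = 0.192, 19.3% of all genes called), -0.72 for NWS (SE 0.44, n = 18, adjusted p = 0.380, 0.971% called) and 0.02 for Belclare (SE 0.38, n = 18, adjusted p = 0.987, 0.00639% called). Suffolk replicate 9, at 1332 CPM, was the highest of these ewes, and without it the values were -0.38, -0.28 and 0.46. Without NWS replicates 4 and 10 the value in NWS was -0.64 (adjusted p = 0.546). Over the 4 breeds the adjusted p was 0.138 (edgeR F test with 3 degrees of freedom, 32.1% of all genes called), and 0.203 without the 2 NWS ewes.

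**Figure D2:**
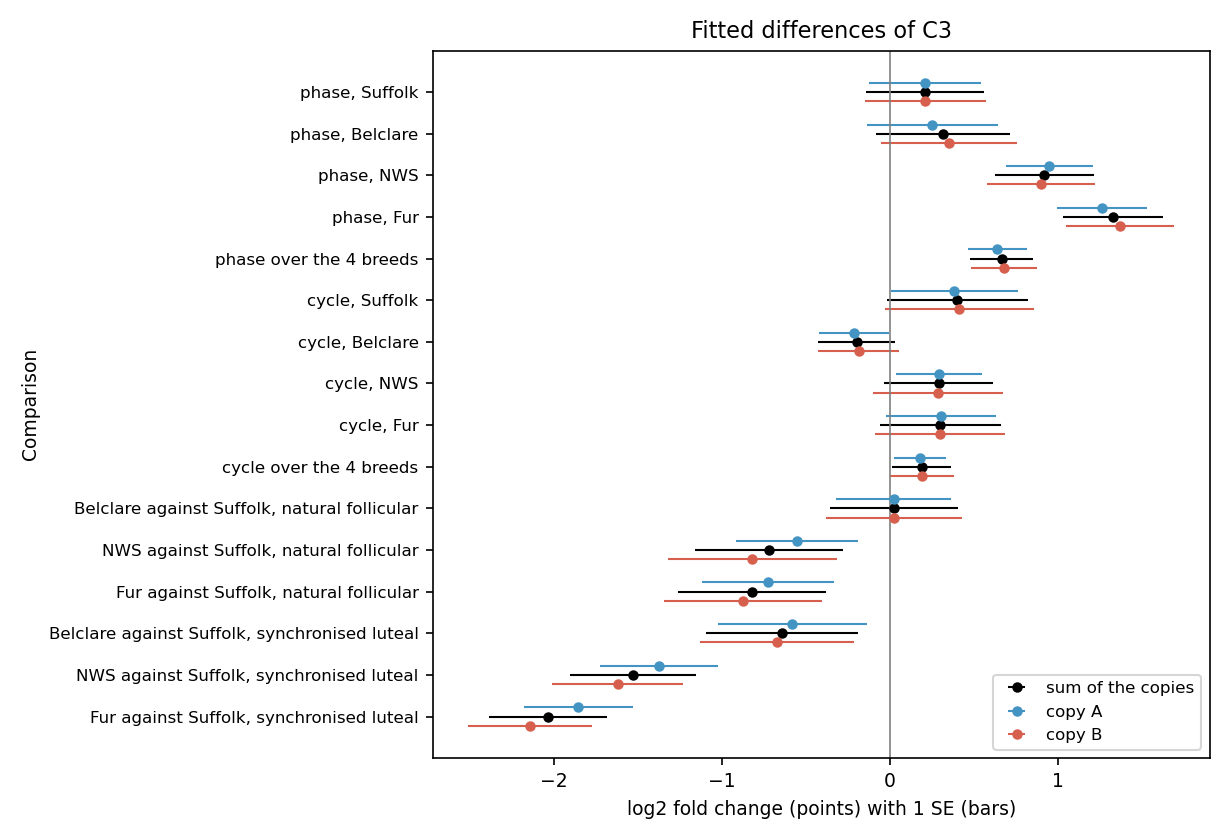
Log2 fold changes of C3 (points) with 1 SE (bars) in each comparison, for the sum and for each copy; phase is synchronised follicular minus luteal, cycle is synchronised minus natural follicular, and breed is the named breed minus Suffolk. The copies move together throughout, with the values farthest from 0 at the luteal phase in Fur and NWS.

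The copies rose and fell together from ewe to ewe. After the group means were subtracted, Spearman's rho between their log2 levels was 0.976 over the 114 ewes, which share library and depth between the copies. Among the 14 names that the study's tables give to exactly 2 identifiers, this was second to IGHG3, an immunoglobulin heavy chain gene, with 0.983. The other 13 names had a median of 0.799, down to 0.280 for SAA1, a serum amyloid A of the acute phase. Levels of the copies were not compared with each other, since gene lengths were not at hand, and read pairs that match both copies would have been lost because only unique alignments were kept.

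**Figure D3:**
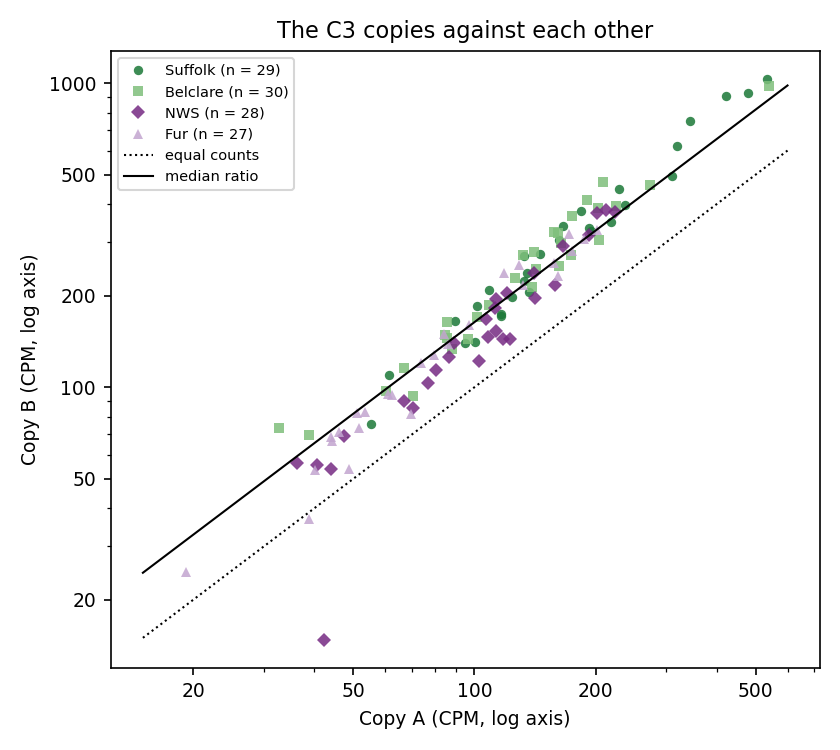
Level of copy B against copy A in each ewe (CPM, both axes log), by breed. The solid line marks the median ratio of 1.64 and the dotted line equal counts; 2 ewes lie below the dotted line, an NWS ewe with 42.2 and 14.8 CPM and a Fur ewe with 38.7 and 36.9 CPM.

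The ratio of the copies, which does not depend on gene length when it is compared among ewes, still varied by more than counting error. The ratio of the count of copy B to that of copy A had a median of 1.64 and lay between 1.10 and 2.26 in 112 of 114 ewes. Within groups its log2 had a standard deviation of 0.28, 7.07 times the median counting error of 0.040. That error covers counting alone.

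The ratio was higher in the Irish than in the Norwegian breeds. Its median was 1.79 in Suffolk (n = 29, range 1.36 to 2.19), 1.76 in Belclare (n = 30, 1.33 to 2.26), 1.601 in Fur (n = 27, 0.954 to 2.00) and 1.44 in NWS (n = 28, 0.350 to 1.85). The breeds overlapped widely. The mean log2 ratio of Belclare exceeded that of NWS by 0.35 and that of Fur by 0.22. The difference from Suffolk was -0.33 for NWS and -0.20 for Fur. In a two-sided permutation test with labels permuted within state, these 4 differences had adjusted p of 8.0e-05, 0.000613, 8.0e-05 and 0.00108 in that order, over 8 tests of 100000 resamples, where 1e-05 is the smallest unadjusted p they can give. Each of the 4 had the same sign in all 3 states.

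Within a country the breeds were not shown to differ in the ratio. Belclare and Suffolk differed by 0.02 on the log2 scale (adjusted p = 0.758 in the permutation test), and Fur and NWS by 0.13 (adjusted p = 0.242). Without the 2 ewes of ratio under 1 described below, the difference of Fur and NWS was 0.08. Neither phase (0.03, adjusted p = 0.535) nor cycle (0.10, adjusted p = 0.235) passed the same test, and without these 2 ewes the values were 0.01 and 0.05.

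The 4 differences between countries were also past 0.05 without the synchronised follicular ewes, part of which selected the members, with adjusted p of 0.00108 to 0.0130 by the permutation test over 6 tests. Without NWS natural follicular replicates 4 and 10 the log2 difference of Belclare and NWS was 0.34 and that of NWS from Suffolk -0.33, with an adjusted p of 8.0e-05 for both, and the cycle difference was 0.09 (adjusted p = 0.309). The ratio moved with the level of C3, with a Spearman's rho of 0.577 within groups over the 114 ewes. Both measures rest on the same counts, and the median summed level was 395 CPM in Belclare and 419 CPM in Suffolk against 194 CPM in Fur and 264 CPM in NWS. The part of the level in the breed difference of the ratio was not tested.

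**Figure D4:**
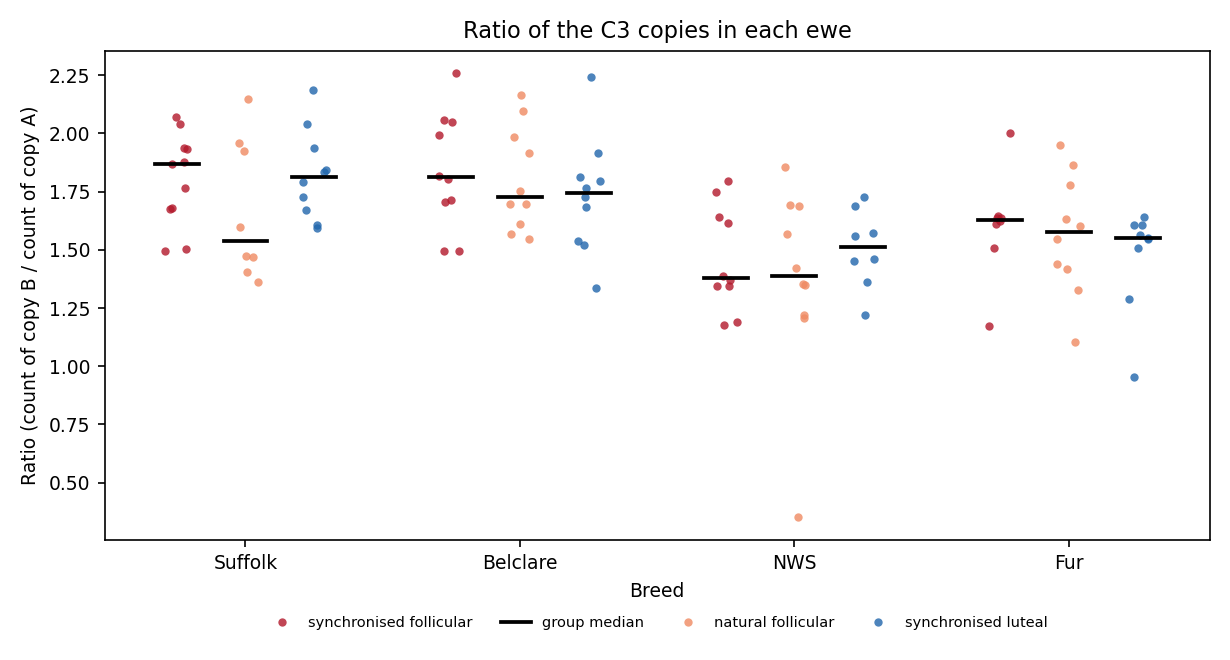
Ratio of the count of copy B to that of copy A in each ewe (points) by breed and state, with the group median as a bar. Group medians lie between 1.54 and 1.87 in the Irish and between 1.38 and 1.63 in the Norwegian breeds, and 1 NWS natural follicular ewe stands apart at 0.350.

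In NWS natural follicular replicate 5 the order of the copies was turned round. It held 523 read pairs on copy A and 183 on copy B, and its summed level of 57.0 CPM was the lowest of its group. Its smooth muscle markers summed to 22907 CPM, the highest of all 114 ewes, and their part in its C3 level was not tested. Fur synchronised luteal replicate 1, with 839 and 800 read pairs, was the other ewe below a ratio of 1.

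Another 4 identifiers, none with a name in the sources used here, followed C3 more closely than any named gene did. They were chosen after their values were seen. Their Spearman's rho with the C3 sum after the group means were subtracted was 0.989 for ENSOARG00000002752, 0.957 for ENSOARG00000000743, 0.947 for ENSOARG00000002771 and 0.876 for ENSOARG00000005384, over 114 ewes and out of 15647 identifiers. The first 3 had medians of 21.7, 7.98 and 12.98 CPM. ENSOARG00000005384 had a median of 381 CPM and a range of 62.7 to 1549 CPM.

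In NWS natural follicular replicate 5, where copy B was low, ENSOARG00000005384 stood at 519 CPM. Its level there was 9.10 times the C3 sum, against 0.762 to 2.29 times in the other 113 ewes. The other 3 of these identifiers were at 2.67, 1.45 and 1.86 CPM in this ewe, each the lowest level of all 114 ewes. What these identifiers encode was not determined.

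The names at hand covered 5 other complement genes, of which ITGAX and ITGB2 also stand in the leukocyte list, and further members of the pathway such as C7 were not analysed here. Of 5, over the breeds, 2 were higher in the follicular phase, 2 were lower and 1 did not pass, with a median log2 fold change of -0.11 beside -0.01 over all genes, where 69.5% of all genes were called. CFHR3, a relative of the regulator factor H, was higher by 1.16 (SE 0.17) and had passed in each of the 4 breeds. COLEC12, a collectin of the scavenger receptor type, was higher by 0.27 (SE 0.11). COLEC10, a soluble collectin of the lectin pathway, fell by 1.67 on the log2 scale (SE 0.26).

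Of the receptor genes, ITGAX, the alpha chain of a phagocyte receptor for the fixed C3 fragment, was lower in the follicular phase by a log2 fold change of -0.72 (SE 0.17). ITGB2, the beta chain that this receptor shares with other leukocyte integrins, had a log2 fold change of -0.11 (SE 0.11, edgeR adjusted p = 0.380). At the synchronised luteal phase ITGAX, ITGB2 and CFHR3 were lower in Fur than in Suffolk, by log2 fold changes of -1.34, -0.54 and -0.90, where 29.4% of all genes were called. COLEC10 (-0.43) and COLEC12 (-0.18) did not pass. In NWS against Suffolk only ITGAX of these 5 passed, with -0.86, where 8.45% of all genes were called. In the cycle comparisons, where 0% to 18% of all genes were called, none of the 5 passed in any breed. At the natural follicular phase none passed in a single breed against Suffolk, while the test over the 4 breeds, with 32.1% of all genes called, passed for CFHR3 (edgeR adjusted p = 0.00474), ITGB2 (0.0235) and COLEC10 (0.0238). Without NWS replicates 4 and 10 ITGB2 did not pass (0.0586).

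The thioester protein family, to which C3 belongs, was followed through 2 relatives. A2M, the plasma protease inhibitor alpha-2-macroglobulin, was higher in Fur and NWS than in Suffolk at the luteal phase, by log2 fold changes of 4.76 (SE 0.62) and 3.91 (SE 0.50). These comparisons called 29.4% and 8.45% of all genes. Its luteal level ran from 1.72 through 4.00 to 9.63 CPM in Suffolk and from 19.8 through 55.7 to 570 CPM in Fur, without overlap. Its phase difference differed between breeds (edgeR adjusted p = 0.0200 for the interaction, 0.952% of all genes called). It was 3.03 in Belclare, 1.603 in Suffolk, -0.39 in NWS and -1.29 in Fur, of which the last 2 did not pass. A2ML1, an epithelial relative, was higher in the follicular phase in each breed, by 1.22 over the breeds (SE 0.19), and lower in Fur than in Suffolk at the luteal phase (-1.52, SE 0.28). The phase comparisons called 35.5% to 45.2% of all genes within breeds and 69.5% over the breeds.

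Of genes of the acute phase and plasma proteins, 9 of 13 were higher in the follicular phase over the breeds and 3 lower, where 69.5% of all genes were called, with a median log2 fold change of 1.04 beside -0.01 over all genes. The range went from ORM2, an orosomucoid, at -1.54 to TTR, the thyroid hormone carrier transthyretin, at 3.20. Within breeds 8 of 13 were higher and 1 lower in Suffolk, and 5 higher and 1 lower in Belclare. In Fur and NWS 5 were higher and 2 lower each. Of all genes 35.5% were called in Suffolk, 42.9% in Belclare, 45.2% in Fur and 40.8% in NWS. At the luteal phase 7 of the 13 were lower in Fur than in Suffolk and none was higher, with a median of -0.82 and 29.4% of all genes called, while in NWS 1 was lower, with 8.45% called. Of 8 genes that carry cytokine signals known to raise C3, 2 were higher and 4 lower in the follicular phase, a share near the 69.5% of all genes, from IL6R, the interleukin receptor chain, at -0.81 to CEBPB, a transcription factor of the acute phase, at 0.63. The median of this list was -0.08.

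Among the 1348 named identifiers that passed the filter, those most like the C3 sum from ewe to ewe were WNT2, a secreted signalling protein (rho 0.658), ARNT2, a transcription factor of the bHLH-PAS family (0.609), SAA1 (ENSOARG00000009847, 0.574), MUC16, a membrane mucin of epithelia (0.573), DCDC2, a doublecortin domain protein (0.569), AL359736.1 (0.552), SEMA4D, a semaphorin (0.546), IRF8, a transcription factor of myeloid and B cells (0.542), ICOSLG, a ligand of T cell costimulation (0.539), and TRANK1 (0.535). The other identifier named SAA1, ENSOARG00000009865, had a rho of 0.260. The measure was Spearman's rho of log2 CPM over the 114 ewes after group means were subtracted, and genes of 1 library share its depth and its mix of cells. Named identifiers were 8.62% of those compared and made up 22 of the 50 highest. Of the marker lists, leukocyte markers had a median rho of 0.34, epithelial markers 0.20, endothelial markers 0.10 and smooth muscle markers -0.33 with C3. The median rho was 0.14 over the named identifiers, from which the lists come, and -0.02 over all identifiers.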

How the data were processed

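RNA was sequenced from 115 sheep cervix samples. The authors trimmed reads with BBDuk, aligned them to Oar_v3.1 with STAR (2.6.1b per the labels), kept uniquely mapped pairs and deposited raw counts per gene of Ensembl annotation from featureCounts (Subread 1.6.3 per the labels). Of these samples, 114 entered 12 groups by their labels, and 1 with contradictory labels was left out. C3 and the gene lists were chosen with earlier results of these data known, and their names come from the study's tables. Named genes were both copies, every listed complement and thioester gene, the extremes of the other lists, and the 10 named identifiers most like C3. Depth ranged from 12238996 to 31261671 counts.

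Counts were joined in Python (3.11.15) and tested in R (4.3.3) with edgeR (4.0.16; TMM, quasi-likelihood F test, Benjamini-Hochberg over 15649 genes with at least 1 CPM in at least 10 ewes; calls at an adjusted p under 0.05). The copies were fitted as 2 genes and, in a second fit, as their sum. Likeness used log2 CPM with a prior count of 2; ratios had 0.5 added to each count. Alternatives were DESeq2 (1.42.0, with its default replacement of outlying counts), other filters and scalings, a joint fit, exact permutation and each ewe left out. Tested on simulated data, the fit of NWS against Suffolk at the luteal phase recovered 85.5% of 200 of 15649 genes changed by 1.5 on the log2 scale, with 8 false calls. The fit of phase in NWS recovered 83% and that of the breed by phase interaction 78.5%, with 9 false calls each. No 2 of 490 pairs of replicate libraries agreed within sampling noise. The labels do not say more of how ewes were allotted, so p-values measure the spread between these ewes.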

Additional observations from a re-analysis of the deposited data

Results flagged for a closer look

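4 of 22 checks of groups of 8 to 10 ewes by Dixon's gap against the range found an ewe far from the others. Chance alone passes this check in about 1 of 20 groups if the values are normally distributed. Levels were checked as CPM and not as log2, so that rate may not hold for them. The summed C3 level of Belclare synchronised luteal replicate 7 was 1522 CPM, with the next ewe at 352 CPM. That of Suffolk natural follicular replicate 9 was 1332 CPM, with the next at 677 CPM (log2 10.4 and 9.40, lowest of the group 7.03). In both ewes both copies were high, with ratios of 1.81 and 2.15. In the first the leukocyte markers summed to 312 CPM, against at most 160 CPM in its group, and in the second the acute phase genes summed to 708 CPM, the highest of its group. The log2 ratio of copy B to copy A was -0.0686 in Fur synchronised luteal replicate 1 and -1.51 in NWS natural follicular replicate 5. The last 2 were also the ewes of lowest or next to lowest C3 level in their groups, with 75.7 and 57.0 CPM.

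The sample whose title and characteristics give different states was outside every comparison. It held C3 at 331 CPM without TMM scaling, with a ratio of the copies of 1.603.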

How the results depend on the processing

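The alternatives other than leaving out each ewe in turn also held those that dropped chosen sets of ewes. For the summed level and the ratio, 168 values were counted as unchanged. This meant the same direction and side of the threshold, or the side alone for F tests, which have no direction. The log2 ratio from the summed counts of each set of ewes, where the main test had no call, only had to stay within the spread. By that rule the 168 include differences that turned sign, Belclare from Suffolk (-0.03, against 0.02 in the main test) and phase (-0.01, against 0.03). Of the rest, 4 lost a call, 2 gained one and 1 was counted as changed in sign. The phase difference in Belclare was called by DESeq2 (0.93, adjusted p = 0.000163) and with the replicate block (0.82, edgeR adjusted p = 0.0431), and its adjusted p ranged from 0.000163 to 0.7096. DESeq2 ran with its default replacement of outlying counts, so its call may not rest on every count as measured. That in NWS was not called with the replicate block (1.02, adjusted p = 0.0672) or with all 12 groups in one fit (0.93, adjusted p = 0.0535), and NWS against Suffolk at the luteal phase was not called with the replicate block (-1.62, adjusted p = 0.0857). The phase difference over the breeds was not called without the Fur and Suffolk ewes (0.60, edgeR adjusted p = 0.0509). The median log2 ratio of Belclare against Suffolk was -0.0264. The causes were not tested. The methods describe tissue taken post mortem for the synchronised follicular ewes, so a replicate number there cannot stand for an ewe sampled again later. Of 151 same-numbered pairs 52 were correlated over 0.1, and no one of 17 comparisons had every pair over it. This check cannot exclude another meaning of the numbers. The replicate block is given here only, and it changed no other call of the summed level.

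With each ewe left out, the natural follicular difference of Belclare from Suffolk ran from -0.11 to 0.46 and changed sign in 9 of 18 fits (copy A -0.10 to 0.38, copy B -0.11 to 0.51). The phase difference in Belclare ran from 0.20 to 1.01 and the luteal difference of Belclare from Suffolk from -1.33 to -0.46, both called without Belclare replicate 7. The calls for Fur and NWS were kept, with phase differences of 1.21 to 1.46 and 0.80 to 1.09 and luteal differences of -2.17 to -1.86 and -1.70 to -1.35, but copy B alone lost its call for phase in NWS in 6 of 18 fits. Leaving out NWS natural follicular replicates 4 and 10, the 2 ewes of low ratio, the Fur and Suffolk ewes from the pooled fits, or the synchronised follicular ewes from the ratio was chosen after seeing the data. Without gene lengths and with unique alignment only, levels of the copies could not be set against each other.

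Counts of all genes called moved by over 1.5 times in some comparisons. By DESeq2 against edgeR they were 155 and 2 for cycle in NWS, 1541 and 548 for Belclare, 2034 and 1322 for NWS against Suffolk at the luteal phase, 1027 and 152 for NWS and 25 and 1 for Belclare against Suffolk at the natural follicular phase, and 500 and 149 for breed by phase and 631 and 364 for breed by cycle. With all 12 groups in one fit they were 925 against 2818 for cycle in Fur, 191 for cycle in NWS, 2716 for NWS and 88 for Belclare at the natural follicular phase, and 1624 for Belclare at the luteal phase. Without the filter on low counts 72 genes were called for breed by phase. With the replicate block 279 genes were called for NWS and 23 for Belclare at the luteal phase, and 1607 against 3013 for Fur at the natural follicular phase.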
